A study of Homo sapiens with 2 samples.

Results

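The 42 genes described here act in the G2 phase and in mitosis: mitotic cyclins and their kinase, checkpoint kinases, kinetochore and spindle proteins, and the motors and scaffolds of cell division. They were listed by symbol for their known roles in the cell cycle, by a rule that uses no measured value but with earlier results of these data known. All 42 of 42 symbols matched 1 row of the 58735 Ensembl genes in the deposited count tables through GENCODE release 44. The tables come from 2 libraries of polyadenylated RNA of MCF10a-Snail-ER cells, a non-tumorigenic human mammary epithelial line that stably carries the repressor Snail joined to the estrogen receptor, kept for 1 day in 100 nM tamoxifen. Both libraries share that line, transgene and treatment. The first group is 1 direct RNA library read on an Oxford Nanopore device, where single native strands pass through a pore, and the second is 1 library of Illumina TruSeq stranded mRNA, in which RNA is fragmented and copied into amplified cDNA. With 1 library in each group and no untreated cells, the only comparison is between these libraries, and no value below has a replicate check. All intervals are 95% exact intervals for counting error only, and amplified reads do not each stand for a separate molecule.

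Entry into mitosis is driven by cyclin B bound to the kinase CDK1, helped by the Polo and Aurora kinases. The spindle checkpoint holds cells until all kinetochores are attached, after which the anaphase-promoting complex marks cyclin B and securin for destruction, sister chromatids part and the cell is cleaved. The RNAs of most of these proteins rise together late in the cell cycle and fall after division, so their level in a culture is widely read as a sign of how many cells are dividing. Their promoters are known for a short element, the CHR (cell cycle genes homology region), bound by the DREAM and MYB-MuvB complexes, often placed downstream of CCAAT boxes, which bind NF-Y. Genes of DNA replication more often carry E2F elements.

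The promoter sequences are shown first because this is a feature the members share that the choice of genes did not use. RefSeq promoter windows on GRCh38.p14, which run from 250 bases before to 50 bases after a start site, matched 36 of the 42 genes (47 windows). The CHR letters TTTGAA, on either strand, were present in a window of 27 of these 36 genes (75%), against 18.2% of the 27305 genes in the table. CCAAT, on either strand, was present for 29 of 36 genes (80.6%), against 39.7% of all genes. Both motifs stood in 1 window for 22 of 36 genes (61.1%), against 7.26% of all genes. The CHR variant TTCGAA was found for 3 genes, and the E2F letters TTTCCCGC and TTTGGCGC for 1 gene each, where the shares of all genes were 1.82%, 1.98% and 0.795%.

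For genes of S phase, from a list of 50 with a window for 42, the shares of the CHR and E2F letters were the other way round. TTTGAA was present for 2 of the 42 (4.76%), while TTTCCCGC was present for 11 (26.2%) and TTTGGCGC for 8 (19.0%). CCAAT was present for 25 of them (59.5%), which like the share of the mitosis and G2/M genes is above that of all genes. Another 97 G2/M genes, 80 of them with a window, had TTTGAA in 40 and CCAAT in 55. A match of letters is a description and not a measured binding site.

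**Figure D1:**
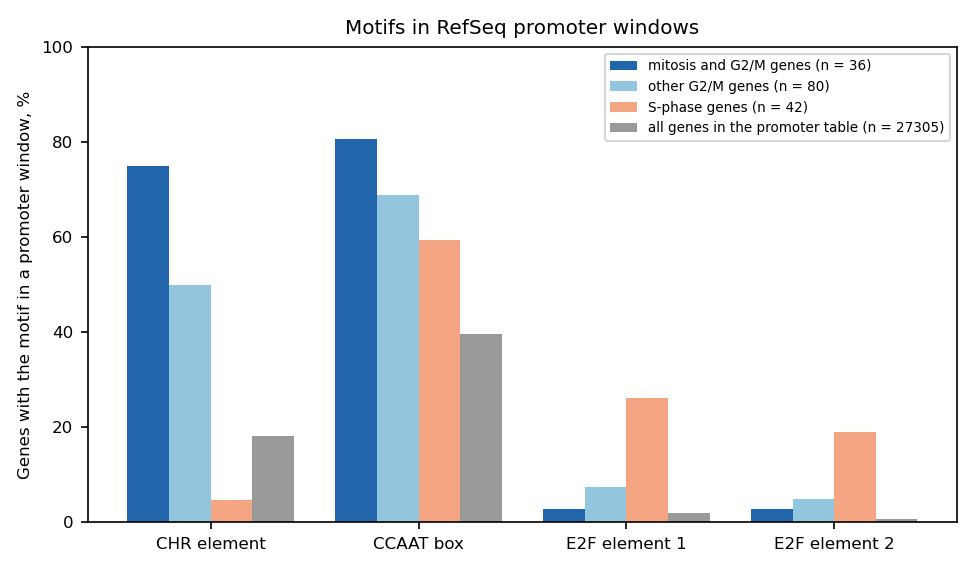
Percent of genes with each motif in at least 1 RefSeq promoter window (vertical axis, from 0 to 100%), for the 36 mitosis and G2/M genes with a window, 80 other G2/M genes, 42 S-phase genes and all 27305 genes of the promoter table. E2F element 1 is TTTCCCGC and element 2 is TTTGGCGC; the CHR bar stands at 75% for the mitosis and G2/M genes and at 4.76% for the S-phase genes.

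Stretches of 4 members described below are printed as examples and do not stand for all members. CCNB1, CCNA2, PTTG1 and KIF20A, among others, had CCAAT but no TTTGAA in their windows. In each stretch the capitals mark TTTGAA or its reverse complement and CCAAT or its reverse complement, and the stretch ends before the first annotated exon of GENCODE release 44. The stretch of CCNB2 (chr15:59105016-59105125, plus strand) holds 3 CCAAT boxes whose first bases lie 120, 87 and 54 bases before the start site, and a CHR 29 bases before it. In CDC20 (chr1:43358851-43358980, plus strand) the CHR, 65 bases before the start, lies between CCAAT boxes at 100 and 55 bases. CKS2 (chr9:89311065-89311194, plus strand) has its CHR on the reverse strand, and in MKI67 (chr10:128126424-128126553, minus strand) the second of 2 CHR matches overlaps a reverse CCAAT.
CCNB2: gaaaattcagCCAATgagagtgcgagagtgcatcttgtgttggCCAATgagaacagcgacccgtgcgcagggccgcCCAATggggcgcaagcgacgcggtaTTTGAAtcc
CDC20: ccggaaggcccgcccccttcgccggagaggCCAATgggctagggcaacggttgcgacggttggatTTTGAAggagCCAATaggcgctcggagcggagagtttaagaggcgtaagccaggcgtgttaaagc
CKS2: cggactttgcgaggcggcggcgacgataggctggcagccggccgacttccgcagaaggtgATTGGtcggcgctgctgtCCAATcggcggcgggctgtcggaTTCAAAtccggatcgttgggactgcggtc
MKI67: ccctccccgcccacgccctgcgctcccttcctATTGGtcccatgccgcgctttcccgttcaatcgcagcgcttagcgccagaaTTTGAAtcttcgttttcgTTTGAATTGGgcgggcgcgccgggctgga

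Depth differed 476-fold, with 403235 counts by Nanopore and 191741714 by Illumina. Levels are given as counts per 1000000 counts of the library (CPM), so that 1 count stood for 2.48 CPM by Nanopore and for 0.00522 CPM in the Illumina library. The labelled cell type was checked against marker genes. All 7 basal mammary markers were detected in both libraries, with summed levels of 9448 (Nanopore) and 10530 CPM (Illumina). The 5 fibroblast markers summed to 27.3 and 33.6 CPM, mostly from DCN, and the 3 immune markers to 32.2 and 45.1 CPM, nearly all from the lysosomal gene CD68, with CD3E at 0 in both. The 3 endothelial markers were at 0 by Nanopore and summed to 5.16 CPM by Illumina.

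Every one of the 42 mitosis and G2/M genes was detected in both libraries. By Nanopore they had between 5 counts (CDCA3) and 107 counts (PTTG1), and by Illumina between 5778 counts (CENPA) and 69606 counts (CENPF). Their median level was 58.3 CPM in the Nanopore library, against 125 CPM in the other. Among the 15524 protein-coding genes with an Illumina count, the members' median stood at percentile 91.1 of Illumina CPM, with a range from 63.2 (CENPA) to 97.7 (CENPF). By Nanopore CPM the median stood at percentile 84.8, from 52.2 (CDCA3) to 97.4 (PTTG1). Together they held 1404 Nanopore counts, 0.348% of that library (0.330 to 0.367%), and 1175344 Illumina counts, 0.613% (0.612 to 0.614%). With the Illumina counts divided by transcript length the Illumina share was 0.464%, which lay between the other values.

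The libraries were compared gene by gene on their counts, by an exact conditional binomial test (two-sided). Its p-values were Benjamini-Hochberg adjusted over 12414 genes whose mean reached 5 CPM, among which were all 42 members. Such a test compares the reads of these libraries and not the methods in general. At an adjusted p under 0.05, 26 of the 42 members were higher by Illumina, where 27.2% of all tested genes and 30.9% of tested protein-coding genes were. None was higher by Nanopore at that threshold, where 20.2% of all tested genes and 11.8% of protein-coding genes were, and 16 members did not pass. At an unadjusted p under 0.05 the number higher by Nanopore was also 0. With a ratio of at least 4-fold on the log2(CPM + 1) scale added, 1 of 42 members was higher by Illumina (MKI67), where 7.31% of all genes and 7.73% of protein-coding genes were, and 0 were higher by Nanopore, against 12.9% and 4.74%. The median log2 ratio of Nanopore over Illumina was -0.70 over the members (quartiles -1.21 and -0.42), -0.42 over all tested genes and -0.58 over tested protein-coding genes. Below 0 were 38 members. The tested genes reach down to a mean of 5 CPM, where 1 Nanopore count stood for 2.48 CPM, so calls are harder to reach there. The members' median stood at percentile 91.1 of Illumina CPM among protein-coding genes. No share of calls was taken for genes of like level, so the shares above are not matched for it.

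**Figure D2:**
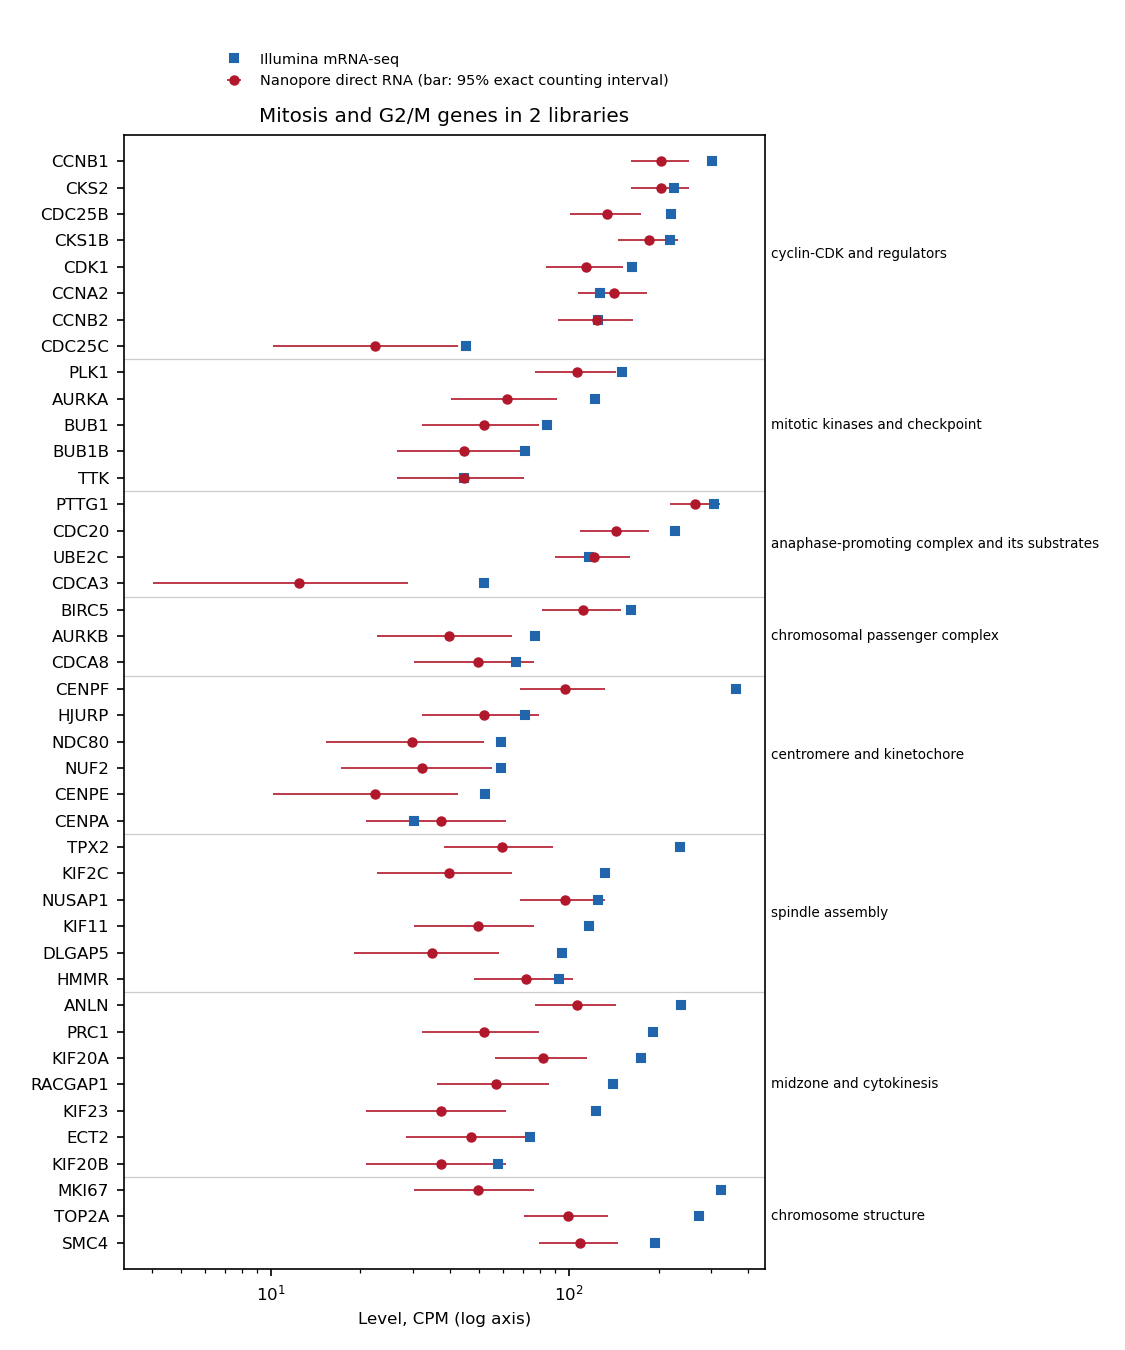
Level of each of the 42 genes in CPM (horizontal log axis) in the Nanopore library (circles, with 95% exact counting intervals) and the Illumina library (squares, whose intervals are smaller than the symbol), grouped by role. The square lies to the right of the circle for 38 genes, furthest for MKI67, and the symbols nearly coincide for CCNB2, TTK and UBE2C.

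The first role is that of the cyclins, CDK1 and the proteins that tune them. CCNB1, the main mitotic cyclin (hg38, chromosome 5, 69167135 to 69178245), gave 82 counts by Nanopore and 58061 by Illumina, 203 CPM (162 to 252) against 303 CPM. Its Nanopore level was 0.672 times the Illumina level (0.534 to 0.834), with an exact binomial adjusted p (Benjamini-Hochberg) of 0.000553. CCNB2, its Golgi-associated relative (chromosome 15, 59105126 to 59125045), was at 124 CPM (from 92 to 164) against 125 CPM, a ratio of 0.993 (0.737 to 1.31), so the 2 libraries placed it at nearly the same level. CCNA2, the cyclin of S phase and early mitosis, had 57 and 24324 counts, 141 against 127 CPM, with a ratio of 1.11 (0.844 to 1.44). CDK1, the kinase they activate, stood at 114 CPM (83.5 to 152) against 163 CPM. Its adjusted p by the same exact test was 0.0285, and it rose to 0.0849 with TMM scaling and 0.128 with median-ratio scaling.

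CKS1B and CKS2 encode the small subunits that bind CDK1, and they were among the 4 members with the most Nanopore counts. CKS1B had 75 Nanopore and 41785 Illumina counts, a ratio of 0.854 (0.671 to 1.07). CKS2 had 82 and 43221 counts, a ratio of 0.902 (0.717 to 1.12), and neither passed the threshold. CDC25B, a phosphatase that activates CDK1, had 54 and 42210 counts and was higher by Illumina, with a ratio of 0.608 (0.457 to 0.794). CDC25C, which acts at the same step, had 9 and 8635 counts, a ratio of 0.496 (0.227 to 0.941). Its exact binomial adjusted p (Benjamini-Hochberg) of 0.0585 missed the threshold although its ratio was lower than that of CDC25B, since it rested on 9 reads. In this group 3 of 8 genes were higher by Illumina and 0 by Nanopore, where 27.2% and 20.2% of all tested genes were. The other 5 did not pass.

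The kinases of mitotic entry and of the checkpoint come next. PLK1, the Polo-like kinase (chromosome 16, 23677656 to 23690367), had 43 Nanopore and 28864 Illumina counts, 107 against 150.5 CPM. Its ratio of 0.708 (0.512 to 0.954) passed with an exact binomial adjusted p (Benjamini-Hochberg) of 0.0456, which TMM and median-ratio scaling raised to 0.121 and 0.176. AURKA, which builds the spindle poles, had 25 and 23531 counts and a ratio of 0.505 (0.327 to 0.746). BUB1, a checkpoint kinase, had 21 and 16161 counts, a ratio of 0.618 (0.382 to 0.945) and an adjusted p of 0.0496 by the same exact test, lost under both scalings (0.103 and 0.138). BUB1B, which carries the checkpoint signal, had 18 and 13609 counts and a ratio of 0.629 (0.373 to 0.994) that did not pass. TTK, the checkpoint kinase also called MPS1, stood at 44.6 CPM (26.5 to 70.5) against 44.4 CPM. Thus 3 of 5 were higher by Illumina, where 27.2% of all tested genes were, and TTK alone had a ratio above 1 (1.00, 0.596 to 1.59).

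The anaphase-promoting complex destroys cyclins and securin. PTTG1, securin (chromosome 5, 160421855 to 160428739), had the most Nanopore counts of all members, 107, and 58903 Illumina counts, 265 against 307 CPM, a ratio of 0.864 (0.708 to 1.04). CDC20, the activator of the complex, had 58 and 43542 counts, 144 against 227 CPM, and was higher by Illumina with a ratio of 0.633 (0.481 to 0.819). UBE2C, its ubiquitin-conjugating enzyme, had 49 and 22468 counts, 122 against 117 CPM, a ratio of 1.04 (0.767 to 1.37). CDCA3, a protein that takes part in the destruction of the kinase WEE1 (chromosome 12, 6844793 to 6851292), stood apart in this group. It had 5 and 9958 counts, 12.4 CPM (4.03 to 28.9) against 51.9 CPM, a ratio of 0.239 (0.0775 to 0.557), with an exact binomial adjusted p (Benjamini-Hochberg) of 0.000276. Its log2 ratio of -1.98 lay just inside 4-fold with a pseudocount of 1 CPM, and with 0.1 CPM it passed, which raised the number of members called 4-fold higher by Illumina from 1 to 2.

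The chromosomal passenger complex corrects attachments and later guides cleavage. BIRC5, also known as survivin, had 45 and 31068 counts, 112 against 162 CPM. Its ratio of 0.689 (0.502 to 0.922) had an adjusted p of 0.0239 by the exact binomial test (Benjamini-Hochberg), and of 0.0723 and 0.111 under TMM and median-ratio scaling. AURKB, the kinase of the complex, had 16 and 14763 counts and was higher by Illumina, with a ratio of 0.515 (0.294 to 0.837). CDCA8, also known as borealin, had 20 and 12742 counts and a ratio of 0.746 (0.456 to 1.15) that did not pass.

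Centromere and kinetochore genes spanned the widest range of length. CENPF, a large coiled-coil protein of the outer kinetochore (chromosome 1, 214603185 to 214664574), had the most Illumina counts of all members, 69606, and shared rank 16 by Nanopore with 39 counts. That was 96.7 CPM (68.8 to 132) against 363 CPM, a ratio of 0.266 (0.189 to 0.364), with an exact binomial adjusted p (Benjamini-Hochberg) of 1.83e-24. CENPE, a kinetochore motor, had 9 and 10058 counts and was higher by Illumina, with a ratio of 0.425 (0.195 to 0.808). NDC80 and NUF2, partners in the complex that grips microtubules, were close to each other in both libraries: 12 and 13 counts by Nanopore, 11378 and 11327 by Illumina. Their adjusted p-values by the exact test of 0.0263 and 0.0497 passed, but not under TMM scaling (0.0522 and 0.0927) or median-ratio scaling (0.0685 and 0.119). CENPA, the histone H3 variant of centromeres, had 15 and 5778 counts, 37.2 CPM (20.8 to 61.4) against 30.1 CPM, the highest ratio of any member at 1.23 (0.691 to 2.04). HJURP, its chaperone, had 21 and 13611 counts, a ratio of 0.734 (0.454 to 1.12).

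Among spindle genes 4 of 6 were higher by Illumina, where 27.2% of all tested genes were. TPX2, which nucleates microtubules around chromosomes (chromosome 20, 31739271 to 31801805), had 24 and 45106 counts, 59.5 CPM (38.1 to 88.6) against 235 CPM. Its ratio was 0.253 (0.162 to 0.377), with an exact binomial adjusted p (Benjamini-Hochberg) of 9.58e-17. KIF2C, a kinesin that takes microtubules apart, had 16 and 25275 counts and a ratio of 0.301 (0.172 to 0.489). DLGAP5, which stabilizes spindle fibres, had 14 and 18228 counts and a ratio of 0.365 (0.200 to 0.613). KIF11, the motor that pushes spindle poles apart, had 20 and 22388 counts and a ratio of 0.425 (0.259 to 0.656). NUSAP1 and HMMR, a pair of microtubule-binding proteins, had 39 and 29 Nanopore counts and ratios of 0.773 (0.550 to 1.06) and 0.776 (0.520 to 1.11) that did not pass.

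Of the 7 genes of the midzone and of cytokinesis, 5 were higher by Illumina, where 27.2% of all tested genes were. PRC1, which bundles the midzone (chromosome 15, 90966040 to 90995629), gave 21 counts against 36738, with a ratio of 0.272 (0.168 to 0.416). KIF23 and RACGAP1, the subunits of centralspindlin, had 15 and 23 Nanopore counts against 23697 and 27023 by Illumina, with ratios of 0.301 (0.168 to 0.496) and 0.405 (0.257 to 0.607). ANLN, which scaffolds the contractile ring, had 43 and 45597 counts, a ratio of 0.448 (0.325 to 0.604), and KIF20A, a midzone kinesin, had 33 and 33576 counts, a ratio of 0.467 (0.322 to 0.656). ECT2, which activates RhoA for cleavage, had 19 and 14178 counts and a ratio of 0.637 (0.384 to 0.996), and KIF20B 15 and 11103 counts and a ratio of 0.642 (0.359 to 1.06). Neither of these passed the threshold.

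Genes of chromosome structure were higher by Illumina in 3 of 3 cases, where 27.2% of all tested genes were. MKI67, the proliferation marker Ki-67 that coats mitotic chromosomes (chromosome 10, 128096659 to 128126423), ranked second by Illumina with 61907 counts and shared rank 26 by Nanopore with 20 counts. Its level of 49.6 CPM (30.3 to 76.6) against 323 CPM was the lowest ratio of any member, 0.154 (0.0938 to 0.237), or -2.68 on the log2 scale, and its adjusted p by the exact binomial test (Benjamini-Hochberg) was 1.26e-31. TOP2A, the topoisomerase that untangles sister DNA, had 40 and 52211 counts, a ratio of 0.364 (0.260 to 0.496). SMC4, a condensin subunit, had 44 and 37180 counts, a ratio of 0.563 (0.409 to 0.756).

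The ratio was then set against the length of the Ensembl canonical transcript, since fragment counts grow with length while a direct RNA read stands for 1 strand. The 4 members under 1000 bases (CKS1B, CKS2, PTTG1 and UBE2C) had log2 ratios from -0.23 to 0.05, with a median of -0.18. The 7 members of 5000 bases or more (CENPE, CENPF, KIF11, KIF20B, MKI67, SMC4 and TOP2A) ran from -2.68 to -0.62, with a median of -1.22. Spearman's rho between log2 ratio and length was -0.511 over the 42 genes, -0.561 over the 17 that overlap no other gene and -0.424 without the 3 longest. Over 10498 protein-coding genes rho was -0.374. These values are across genes, which share the libraries and are not replicates.

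The members were then read against genes of like length. The protein-coding median was 0.48 under 1000 bases, -0.18 from 1000 to 2000, -0.50 from 2000 to 3000, -0.76 from 3000 to 5000 and -0.99 above, where the members' medians were -0.18, -0.66, -0.55, -0.90 and -1.22. Below the median of their class were 27 of 42 members. When the protein-coding genes were limited to the Illumina range of the members (30.1 to 363 CPM), their medians were 0.18, -0.34, -0.70, -0.92 and -1.15, and 25 of 42 members were below. CDCA3 had a ratio far under its class (-1.98 against -0.18), and CENPA lay above it (0.30).

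**Figure D3:**
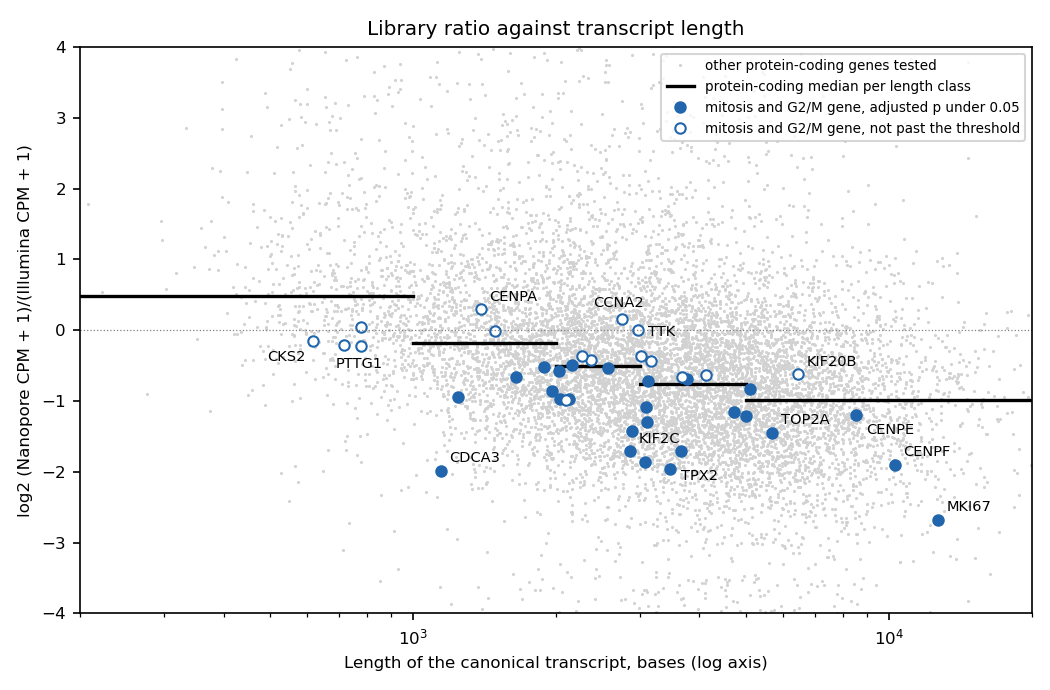
Log2 ratio of Nanopore over Illumina CPM, each plus 1 (vertical axis), against the canonical transcript length in bases (log axis), for tested protein-coding genes (grey points; those beyond 4 in either direction or outside the drawn range of lengths are left out) and the 42 mitosis and G2/M genes (filled where the adjusted p was under 0.05). Black lines are protein-coding medians per length class; the members run from near 0 at short lengths to -2.68 for MKI67.

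With the Illumina counts divided by canonical length (TPM, scaled to a sum of 1000000), the median log2 ratio moved to -0.04 over the members, 0.48 over all tested genes and 0.37 over protein-coding genes. Relative to all tested genes the members were thus at -0.28 before and -0.52 after division. Relative to protein-coding genes they were at -0.12 and -0.42. On this scale 10 of 42 members were higher by Illumina at an adjusted p under 0.05, where 9.86% of 12350 tested genes were, and 5 were higher by Nanopore, where 31.4% were. With the 4-fold rule added, 1 member (CDCA3) was higher by Illumina, against 2.53% of tested genes, and 0 were higher by Nanopore, against 15.6%. Which member was called depended on the length used. It was CKS2 with union exonic length (log2 ratio -2.28) and PRC1 with mean transcript length (-2.04), where CDCA3 was at -1.15 and -1.83. MKI67, lowest before division, was at 49.6 CPM against 39.4 TPM, a ratio of 1.26 (0.770 to 1.95) that did not pass. Its per-length log2 ratio of 0.33 turned to -0.45 with union exonic length and -0.57 with mean transcript length.

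The short genes now stood on the Illumina side. PTTG1 was at 265 CPM by Nanopore against 666 TPM by Illumina, a per-length ratio of 0.399 (0.327 to 0.482), and CKS2 at 203 against 567 (0.359, 0.285 to 0.445). CKS1B (0.429), UBE2C (0.520), CDC20 (0.674), AURKB (0.413), CDCA3 (0.176), PRC1 (0.539), TPX2 (0.567) and KIF2C (0.556) were the other members higher by Illumina per length. Higher by Nanopore per length were CENPF (1.77), SMC4 (1.86), CCNA2 (1.98), KIF20B (2.67) and TTK (1.92). With mean transcript length in place of canonical length, CENPF and SMC4 changed sign (log2 ratios of -0.38 and -0.50), and TPX2 and TTK lost their call (-0.42 and 0.14; adjusted p by the exact test 0.295 and 0.879). With union exonic length CENPF, CCNA2, KIF20B and TTK kept their sign but not their call, as did CDCA3. Calls were gained only on the Illumina side. With mean transcript length these were CCNB1, DLGAP5, KIF20A, NDC80, NUF2 and RACGAP1, and also ANLN, BIRC5, SMC4 and TOP2A after a change of sign. With union exonic length they were AURKA, CCNB1, DLGAP5 and KIF20A. Spearman's rho between the per-length log2 ratio and length was 0.731 over the 42 members and 0.417 over protein-coding genes, so the length trend had changed sign and not vanished.

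The order of the levels was partly shared. Across the 42 members Spearman's rho was 0.749 between Nanopore and Illumina CPM and 0.787 between Nanopore CPM and Illumina TPM, beside 0.692 and 0.714 over tested protein-coding genes. PTTG1, CKS2 and CKS1B were ranks 1, 2 and 3 by Illumina TPM and 1, 2 (shared with CCNB1) and 4 by Nanopore. At the low end, CENPE was last by Illumina TPM (9.52) and shared rank 40 by Nanopore, where CDCA3 was last.

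**Figure D4:**
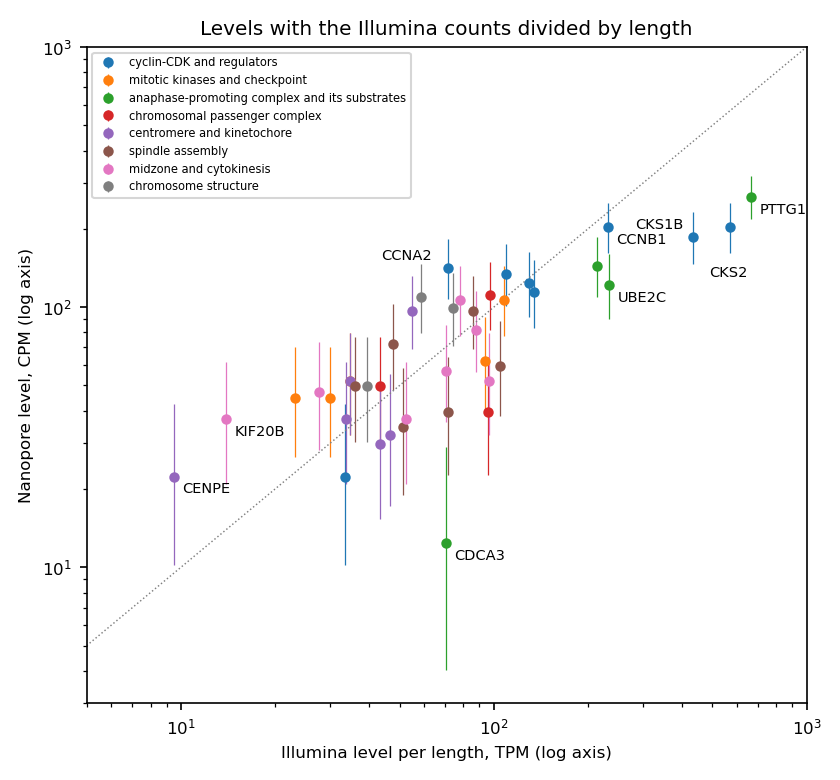
Nanopore level in CPM (vertical log axis, bars are 95% exact counting intervals) against Illumina level in TPM by canonical length (horizontal log axis) for the 42 genes, coloured by role; the dotted line marks equal values. PTTG1, CKS2 and CKS1B lie furthest right and below the line, CENPE and KIF20B lie lowest by Illumina and above it, and CDCA3 lies furthest below.

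Partners in a complex or a family were compared within each library, where scaling between libraries plays no part. For 8 of 10 such pairs the Illumina per-length ratio lay within the Nanopore interval. These intervals rest on 9 to 82 Nanopore counts per gene and are wide, so a ratio within them does not show equal ratios. No share was taken for other gene pairs. CCNB1 over CCNB2 was 1.64 by Nanopore (1.14 to 2.38) and 1.78 by Illumina. NDC80 over NUF2 was 0.923 (0.385 to 2.19) and 0.928, KIF23 over RACGAP1 0.652 (0.317 to 1.30) and 0.744, and BUB1 over BUB1B 1.17 (0.592 to 2.32) and 1.16. Also within were AURKA over AURKB (1.56, 0.802 to 3.13, against 0.974), CKS1B over CKS2 (0.915, 0.660 to 1.27, against 0.764), CDC25B over CDC25C (6, 2.94 to 13.8, against 3.28) and CENPE over CENPF (0.231, 0.0983 to 0.484, against 0.174). The exceptions were KIF20A over KIF20B, at 2.20 (1.16 to 4.36) against 6.29, and CCNA2 over CDK1, at 1.24 (0.826 to 1.87) against 0.534. Both exceptions hold for canonical length, and with union exonic length the Illumina ratio of CCNA2 over CDK1 was 1.10, inside the interval. Other pairs moved outside it: CCNB1 over CCNB2 (2.74 with union, 2.93 with mean transcript length), CKS1B over CKS2 (0.254, union) and AURKA over AURKB (0.801, mean).

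Neighbouring genes were examined next, because 25 of the 42 members overlap the body of another annotated gene, in 42 pairs. In 15 of these pairs, with 11 members, the neighbour had at least 50% of the member's Nanopore count. Of these 15 neighbours 11 lie on the opposite strand, as do most neighbours over all 42 pairs. HMMR-AS1, a lncRNA antisense to HMMR (chromosome 5, 163483065 to 163494058), had 28 Nanopore counts where HMMR had 29. By Illumina the pair had 7 and 17763 counts. These genes share 113 exonic bases. The lncRNA ENSG00000259732, on the same strand as CCNB2, had 49 Nanopore counts where CCNB2 had 50, and 2 Illumina counts where CCNB2 had 23942, although their exons share 0 bases in GENCODE release 44.

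At PLK1 the neighbours on the opposite strand were ERN2 and the lncRNA ENSG00000261266. ERN2, an endoplasmic reticulum stress sensor of secretory epithelia, shares 58 exonic bases with PLK1 and had 32 Nanopore counts beside the 43 of PLK1, but 0 Illumina counts. ENSG00000261266 had 35 Nanopore and 901 Illumina counts. PRC1 and PRC1-AS1 had 21 Nanopore counts each and 36738 and 2818 Illumina counts. SMC4 had 44 Nanopore counts, its neighbours TRIM59 and ENSG00000248710 46 and 49, and by Illumina the 3 genes had 37180, 19871 and 1794. BUB1B and the readthrough gene BUB1B-PAK6 had 18 and 19 counts by Nanopore and 13609 and 1637 by Illumina. In 7 of the 15 pairs the neighbour's log2 ratio was above 2, where 12.9% of all tested genes were 4-fold higher by Nanopore. These pairs were kept for a high Nanopore count of the neighbour, which favours such ratios, so the number is a description only.

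Elsewhere the neighbour was also abundant by Illumina. EXOSC9 had 77.2% of the count of CCNA2 by Nanopore and 68.5% by Illumina, and FAM53C had 144% and 139% of that of CDC25C. CDC23 and BRD8 had 54.5% each of the KIF20A count by Nanopore and 37.7% and 70.2% by Illumina. The protein-coding genes ENSG00000285920 and ENSG00000284946, which hold 97.7% and 85.4% of the 50-base words of the NUSAP1 and PRC1 canonical transcripts, had 138% and 133% of the member's count by Nanopore and 77.3% and 91.2% by Illumina. Counts of NUSAP1 and PRC1 are therefore uncertain. The lncRNA ENSG00000225721 had 63 Nanopore counts beside the 16 of KIF2C, and 290 Illumina counts beside 25275. How reads over several genes, and their strand, were treated in counting is not given in the sources used here, and whether the same reads were counted for both genes of a pair was not tested.

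**Figure D5:**
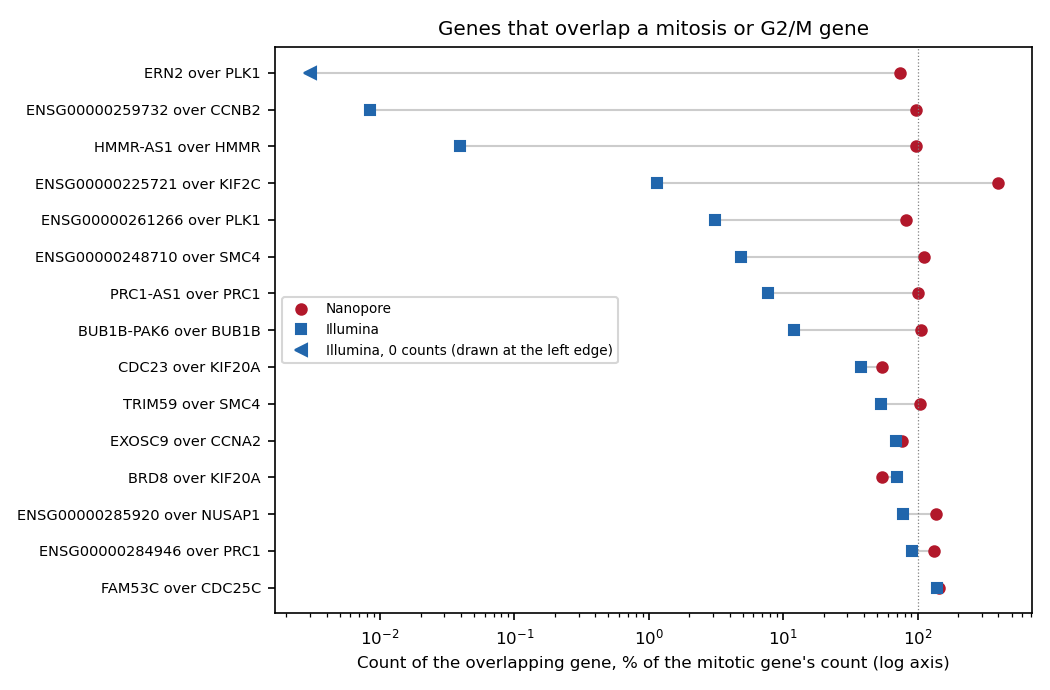
Count of a neighbouring gene as a percent of the count of the mitosis or G2/M gene it overlaps (horizontal log axis; dotted line, 100%), by Nanopore (circles) and Illumina (squares; a triangle at the left edge stands for 0 counts), for the 15 pairs with at least 50% by Nanopore. The Nanopore values lie between 54.5% and 394%, and the Illumina values between 0 and 139%. The 50% cut was set on the Nanopore counts only, so the Nanopore values have a floor that the Illumina values lack.

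The 17 members without overlap were also taken alone. Their median log2 ratio was -0.66, against -0.85 for the 25 with overlap. Higher by Illumina were 12 of 17 against 14 of 25, where 27.2% of all tested genes were. Among the 12 were MKI67, TPX2, CENPE, DLGAP5, CCNB1 and CDC20. Pseudogene copies and relatives elsewhere in the genome held few counts beside those of the members. CKS1B shares 25.5% of its words with other genes, and its pseudogene CKS1BP3 had 1 Nanopore and 1345 Illumina counts. For CDC20 the copy CDC20P1 had 2 and 205 counts, for PTTG1 the relatives PTTG3P and PTTG2 had 0 by Nanopore and 37 and 9 by Illumina, and for RACGAP1 the copy RACGAP1P1 had 0 and 84.

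The wider pathway was measured on a longer list. Of 97 other G2/M genes, 95 were detected by Nanopore and 97 by Illumina. Higher by Illumina at the threshold were 49 and higher by Nanopore 3, where 27.2% and 20.2% of all tested genes were. The median log2 ratio of these 97 genes was -0.85. With the 4-fold rule 11 were higher by Illumina and 0 by Nanopore, against 7.31% and 12.9% of all tested genes. KIFC1, a minus-end kinesin on chromosome 6 (33391823 to 33409896), had 0 Nanopore and 14590 Illumina counts, so by Nanopore it was under 7.44 CPM, the limit set by 3 counts, against 76.1 CPM. CCNF, an F-box cyclin, likewise had 0 Nanopore counts against 50.9 CPM, and TROAP, a spindle protein, had 3 counts, 7.44 CPM against 71.7 CPM. Of 50 S-phase genes, 33 were higher by Illumina and 2 by Nanopore, against 27.2% and 20.2% of all tested genes, and the median was -1.29. Among the S-phase genes CLSPN (2 counts, 4.96 against 34.4 CPM), GINS4 (2 counts, 4.96 against 33.0 CPM) and MCM10 (3 counts, 7.44 against 46.2 CPM) were 4-fold higher by Illumina. No other S-phase gene was called so, where 7.31% of all tested genes were. Per length the medians of these lists were 0.06 and -0.40, beside -0.04 for the members. The per-length log2 ratios of CLSPN, GINS4 and MCM10 were -0.29, -1.29 and -0.99, and none of them passed the threshold. With the 4-fold rule, 3 of the other G2/M genes and 0 S-phase genes were higher by Illumina per length, against 2.53% of tested genes. Higher by Nanopore were 0 and 1, against 15.6%.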

How the data were processed

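The authors deposited unnormalized whole-number gene counts, 1 column per library. The submitters' processing notes name minimap2 2.11-r797, HISAT2 2.1.0, featureCounts and hg38; the annotation release and the counting options are not given in the sources used here. Of 58735 identifiers, 58207 were in GENCODE release 44. Members and gene lists were chosen with earlier results of these data known, and the text names all 42 members, of each other list the 3 highest and 3 lowest log2 ratios among genes called 4-fold, and neighbours with at least 50% of a member's Nanopore count.

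CPM are counts divided by the library total, and log2 ratios use a pseudocount of 1 CPM. The exact conditional binomial test (SciPy 1.17.1, Python 3.11.15; p taken as 2 times the smaller tail, Benjamini-Hochberg adjusted) ran across all genes whose mean reached 5 CPM. With 1 library per group, edgeR's quasi-likelihood and DESeq2's tests could not be fitted; edgeR 4.0.16 (R 4.3.3) gave TMM factors only. Per-length values used the Ensembl canonical transcript. Shared sequence was measured as 50-base words. Intervals are exact (Clopper-Pearson), at 95%. Promoters are from RefSeq, GRCh38.p14.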

Additional observations from a re-analysis of the deposited data

How the results depend on the processing

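The settings tried were TMM and median-ratio scaling (which raise log2 ratios by 0.088 and 0.127), pseudocounts of 0.1 and 5 CPM, no filter or a mean of at least 20 CPM, genes without overlap, and union exonic or mean transcript length. A test over protein-coding genes only was chosen after seeing the data and gave 23 members higher by Illumina, against 26. Both scalings gave 20, no filter 21 and the stricter filter 27, and the count of 0 higher by Nanopore was the same in each of these. Both scalings kept the direction of 41 of the 42 log2 ratios, the exception being CCNB2 (-0.01 as reported, 0.0775 with TMM and 0.12 with median-ratio scaling), and 6 members fell out of the calls in each. Restriction of the test to genes without overlap left 17 members, of which 11 were higher by Illumina and 0 were 4-fold higher per length, with a per-length median of -0.18. The same restriction left 27 other G2/M genes, 5 of them 4-fold higher by Illumina. CDCA3, the 1 member called 4-fold per length among all 42, overlaps GNB3 and so was not among the 17. The cause of the other changes was not tested beyond the smaller number of genes. The summed shares of these 17 members were 0.154% by Nanopore and 0.266% by Illumina, and the Illumina share per length of all 42 was 0.464%. A pseudocount of 0.1 gave 2 members 4-fold higher by Illumina, and median-ratio scaling a median log2 ratio of -0.57. The per-length median was -0.35 with union length and -0.58 with mean transcript length. Mean transcript length reversed the sign of the per-length log2 ratio of 12 members: ANLN (-0.96), BIRC5 (-0.59), SMC4 (-0.50), TOP2A (-1.01), CENPF (-0.38), MKI67 (-0.57), BUB1 (-0.19), BUB1B (-0.73), ECT2 (-0.0772), HJURP (-0.0706), NUSAP1 (-0.0426) and CCNB2 (0.0632). Union length reversed 11: ANLN (-0.0101), BIRC5 (-0.0433), TOP2A (-0.22), MKI67 (-0.45), CDC25B (-0.19), CDCA8 (-0.58), CENPA (-0.17), KIF11 (-0.26), CCNB2 (0.0134), CDK1 (0.0106) and PLK1 (0.31). The cause was not tested. Against the Nanopore intervals of pairs, the Illumina ratio crossed a bound for CCNB1 over CCNB2 (2.74 with union and 2.93 with mean length), CKS1B over CKS2 (0.254, union), CCNA2 over CDK1 (1.10, union) and AURKA over AURKB (0.801, mean). At least 3 counts by Nanopore were present for 42 members and at least 10 for 39. No paired analysis was possible because each group holds 1 library. Nanopore depth limits the precision: members rest on 5 to 107 reads.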
